A study of Drosophila melanogaster with 16 samples.

Results

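*Sirup* and the subunit genes of respiratory complex II were followed by RNAseq in whole male *Drosophila melanogaster* larvae. The genes were taken by name (*Sirup*, *SdhA*, *SdhB*, *SdhC* and *SdhD*), and 4 of these 5 were among the 10459 genes measured. *SdhC* was not analysed here. *Sirup* was chosen by its fasting change in these same libraries, where its level is much higher in fasted larvae. Its fasting changes are therefore given as a description with no test. Its comparisons between genotypes and all comparisons of the subunit genes were tested. The genotype comparisons of *Sirup* share the group means behind that choice, so they are not independent of it.

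There were 4 groups with 4 libraries each: *ERK7* mutant fasted, control fasted, *ERK7* mutant fed and control fed larvae. The mutants carry the *ERK7* 1 allele, a short CRISPR/Cas9 deletion that shifts the reading frame early in the coding sequence of the kinase gene *ERK7*, and they come from 1 mutant line. The controls, called wild type in the labels, come from another line of the same screen without a lesion in *ERK7*. According to the study, both lines were backcrossed for several generations into the same genetic background. The allele and any remaining difference between the lines cannot be told apart. All larvae hatched from 3 h egg collections, were moved to standard food after 24 h and stayed there for 48 h according to the labels, whereas the methods of the study state a later age. They then spent 6 h either on agarose in buffered saline (fasted) or on fresh standard food (fed). The number of larvae per library is not stated for the RNAseq, and nothing states that libraries came from separate cultures, so p-values measure the spread between these libraries.

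Complex II, the succinate dehydrogenase of the inner mitochondrial membrane, belongs both to the citric acid cycle and to the respiratory chain. It oxidises succinate to fumarate and hands the electrons to ubiquinone without pumping protons. SdhA carries the flavin cofactor and the succinate site, SdhB carries the iron-sulfur clusters, and SdhC and SdhD anchor the enzyme in the membrane. Dedicated assembly factors insert the cofactors and join the subunits, and Sirup, the fly counterpart of human SDHAF4 (its name abbreviates starvation-upregulated protein), binds the flavin-loaded SdhA and promotes its union with SdhB.

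Reads on the measured genes numbered 16482553 to 20601418 per library, and values are reads scaled by the authors to the effective library size (RPM). The members rested on 172 to 15690 reads per library for *Sirup*, 7177 to 12047 for *SdhA*, 4645 to 7391 for *SdhB* and 2703 to 4189 for *SdhD*. The *Erk7* transcript, at 5.14 to 8.03 RPM in mutant fasted, 1.83 to 9.73 in control fasted, 5.58 to 10.2 in mutant fed and 0.634 to 3.05 in control fed libraries, does not check the labels, since the deletion leaves most of the transcript to be counted. In a principal component analysis, control fasted replicate 1 lay at -2.46 on the second component (36.2% of the variance), against 16.7 to 44.1 for the other control fasted and -34.7 to -20.6 for the mutant fasted libraries. Leaving it out changed no call of a member in any of the 5 comparisons. At an adjusted p under 0.05, limma called 48.7% of all genes upon fasting in mutants, 69.7% upon fasting in controls, 44.7% between mutants and controls when fasted and 51.5% between them when fed. Markers of larval muscle (8 of 9 listed), fat body (4 of 7), midgut (6 of 8) and testis (16 of 20) were measured, all above 3 reads in at least 1 library of every group. In whole larvae, fewer cells of a type and less RNA per cell cannot be told apart.

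*Sirup* (FBgn0031971) lies on chromosome 2L at 7998869 to 7999676 of the release 6 assembly, on the plus strand, with 727 exonic bases in 2 exons. *SdhA* (FBgn0261439, 2R, 19391863 to 19395971, minus strand) has 2750 exonic bases, *SdhB* (FBgn0014028, 2R, 6807626 to 6809172, plus strand) 1219, and *SdhD* (FBgn0039112, 3R, 23759483 to 23760600, minus strand) 894. None shares exonic bases with a gene on its own strand, and each shares some with a gene on the opposite strand. The overlap is 7 bases with *Wwox* for *Sirup*, 38 with *CG11257* for *SdhA*, 129 with *CG15237* for *SdhB* and 124 with *PTPMT1* for *SdhD*. The study states that reads were counted by strand, but the library protocol names no step that marks the strand. The 4 antisense partners averaged between 5.73 and 20.7 RPM in every group, low beside the subunits but of the same order as *Sirup* in fed larvae, and *PTPMT1* fell upon fasting as *SdhD* did, by 0.24 on the log2 scale in mutants (limma adjusted p = 0.0167) and 0.67 in controls (limma adjusted p = 2.19e-06). The part of these overlaps in the subunit values was not tested.

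*Sirup* transcripts were abundant in fasted and scarce in fed larvae of both genotypes. The 4 mutant fasted libraries had 457, 396, 369 and 649 RPM and the 4 control fasted libraries 702, 747, 844 and 799 RPM. The mutant fed libraries had 17.1, 39.5, 36.2 and 25.7 RPM and the control fed libraries 12.5, 14.0, 11.0 and 13.4 RPM. No library of any group fell within the range of another group (groups lay wholly higher upon fasting for 22.7% of all genes in mutants and 28.1% in controls), and the levels ordered as control fasted, mutant fasted, mutant fed and control fed from high to low. The group means were 468 ± 126 RPM in mutant fasted, 773 ± 61.7 in control fasted, 29.7 ± 10.2 in mutant fed and 12.7 ± 1.27 in control fed larvae (SD, n = 4 each). Mutant libraries thus spread more around their mean, with coefficients of variation of 27.0% (fasted) and 34.5% (fed), against 7.99% and 10.0% in controls.

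**Figure D1:**
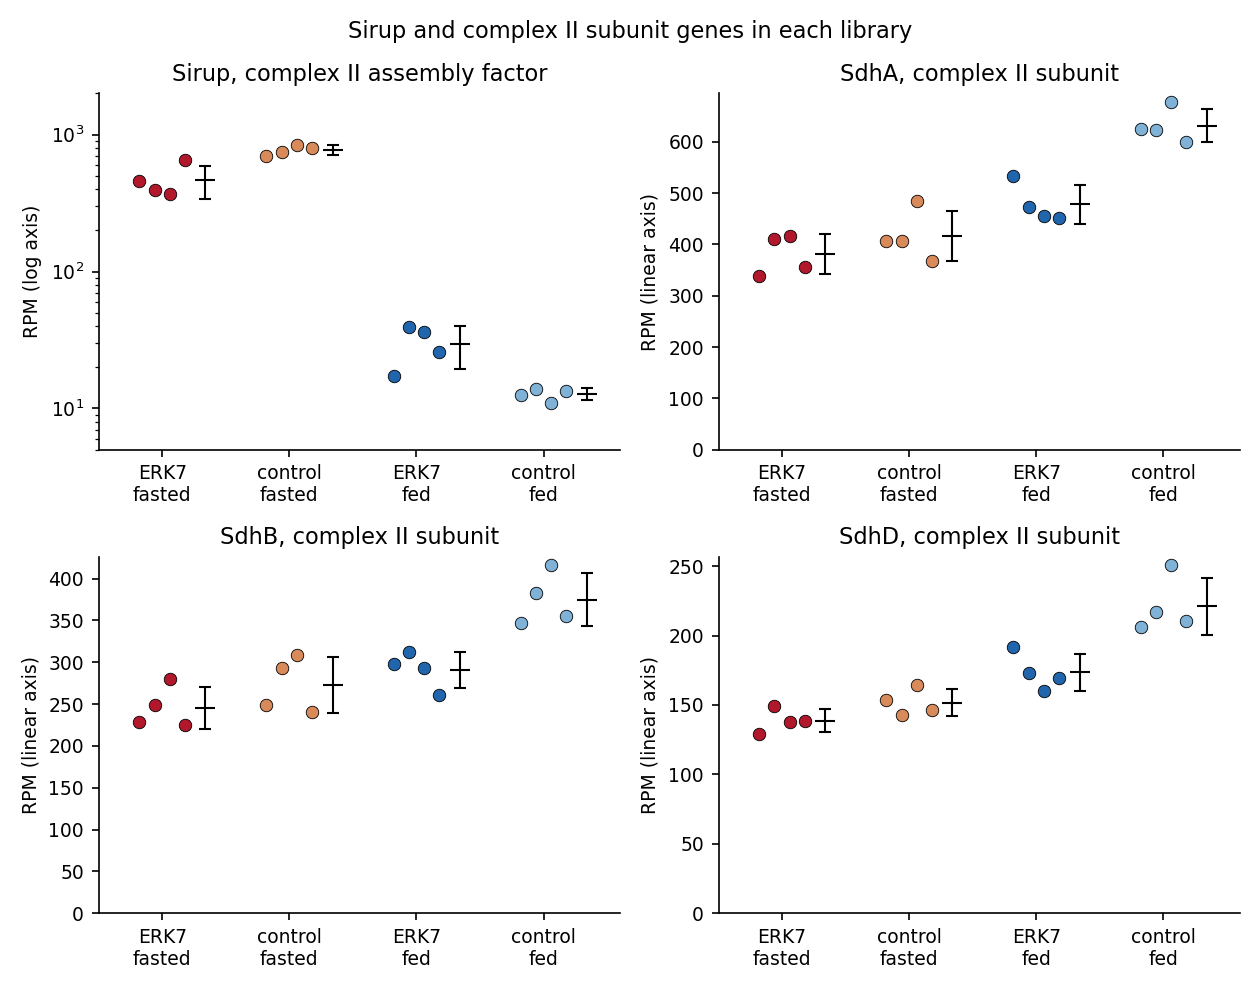
Level in RPM of *Sirup* (log axis) and of the complex II subunit genes *SdhA*, *SdhB* and *SdhD* (linear axes from 0) in the 16 libraries, by group. Points are libraries in the order of their replicate number and bars are the mean with the SD of 4 libraries. *Sirup* separates all 4 groups, from 11.0 to 14.0 RPM in control fed to 702 to 844 RPM in control fasted larvae, whereas for each subunit gene the control fed libraries alone lie above all others.

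As a ratio of group means, *Sirup* was 15.8-fold higher in fasted than in fed mutants and 60.7-fold higher in fasted than in fed controls. On the scale of log2(RPM + 1) used for all fits, which understates the change of low values, the fasting change was 3.97 (SE 0.22) in mutants and 5.82 (SE 0.22) in controls. The difference of these changes, mutant minus control, was -1.85 (SE 0.31). Among all 10459 genes, *Sirup* ranked 13 from the highest by its fitted fasting change in mutants and 5 in controls. Among all genes, 23.7% were called higher upon fasting in mutants and 37.5% in controls, and since *Sirup* was chosen by this contrast, nothing is read from its place among them.

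The genotype comparisons of *Sirup* went in opposite directions on the 2 diets. The contrast between them equals the difference of fasting changes given above without a test, so nothing is read from the opposite directions. Each comparison also shares group means with the fasting change by which *Sirup* was chosen. In fed larvae *Sirup* was higher in the mutants by 1.09 on the log2 scale (SE 0.22, limma adjusted p = 0.000673), and the 4 mutant libraries lay above all 4 controls, as was so for 25.3% of all genes. At the same threshold 25.6% of all genes were called higher in fed mutants. In fasted larvae it was lower in the mutants, at -0.76 on the log2 scale (SE 0.22, limma adjusted p = 0.0130), and the groups again did not overlap, as was so for 16.9% of all genes. Of all genes, 20.9% were called lower in fasted mutants. The fed difference kept its call when any replicate number was left out. The fasted difference did not, with -0.70 (limma adjusted p = 0.0705) without replicate 2 and -0.61 (limma adjusted p = 0.0906) without replicate 3.

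Unlike *Sirup*, the 3 measured subunit genes were highest in control fed larvae and lower in the other 3 groups. Upon fasting all 3 fell in mutants and in controls, at thresholds that called 25% of all genes lower in mutants and 32.2% in controls. The falls of the subunit genes were between 15.7% and 20.5% in mutants and between 27.5% and 34.3% in controls. None moved in the direction of *Sirup* in either genotype.

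*SdhA*, the flavoprotein subunit that Sirup binds, had 339, 411, 416 and 357 RPM in mutant fasted libraries, against 533, 473, 456 and 451 RPM in mutant fed libraries. Control fasted libraries had 407, 406, 485 and 367 RPM, against 625, 623, 677 and 601 RPM in control fed libraries. Within each genotype the fasted libraries lay below all fed ones. On the log2 scale the fasting change was -0.33 in mutants (SE 0.09, limma adjusted p = 0.00802) and -0.61 in controls (SE 0.09, limma adjusted p = 3.75e-05).

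*SdhB*, the iron-sulfur subunit, had 229, 249, 280 and 225 RPM in mutant fasted libraries, against 298, 312, 293 and 261 RPM in mutant fed libraries. The highest fasted mutant library exceeded the lowest fed one, so these groups overlapped. Control fasted libraries had 249, 293, 308 and 240 RPM, against 347, 382, 416 and 355 RPM in control fed libraries, with no overlap. On the log2 scale the fasting change was -0.25 in mutants (SE 0.10, limma adjusted p = 0.0491) and -0.46 in controls (SE 0.10, limma adjusted p = 0.000714).

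*SdhD*, a membrane anchor, had 129, 149, 138 and 139 RPM in mutant fasted libraries, against 192, 173, 160.0 and 169.7 RPM in mutant fed libraries. Control fasted libraries had 153, 142, 164 and 146 RPM, against 206, 217, 250.5 and 210.3 RPM in control fed libraries. The fasted libraries lay below all fed ones in each genotype, as for *SdhA*. On the log2 scale the fasting change was -0.32 in mutants (SE 0.08, limma adjusted p = 0.00302) and -0.54 in controls (SE 0.08, limma adjusted p = 2.1e-05). Of all genes, 23.1% lay wholly lower upon fasting in mutants and 29.6% in controls.

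The falls in controls kept their calls under every alternative, and those in mutants rested on fewer libraries. Without replicate 1 only *SdhD* was called in mutants, with *SdhA* at -0.22 (limma adjusted p = 0.118) and *SdhB* at -0.20 (limma adjusted p = 0.207). *SdhB* also lost its call without replicate 2 (-0.22, limma adjusted p = 0.195) and without replicate 4 (-0.26, limma adjusted p = 0.0750). Summed markers of the fat body, the main storage tissue, were also lower upon fasting, at 13740 to 15196 RPM in mutant fasted and 17988 to 19797 RPM in mutant fed libraries, and at 11459 to 11863 RPM in control fasted and 16850 to 19752 RPM in control fed libraries. Most of each sum was the marker *Rfabg*, with means of 13280 RPM in mutant fasted, 10469 in control fasted, 18104 in mutant fed and 16834 in control fed larvae. The fat body sums thus mainly show this gene. Of the 4 genes measured, 1 fell and 2 rose in mutants, and 3 fell and 1 rose in controls. Among all genes, 25% fell and 23.7% rose in mutants, and 32.2% fell and 37.5% rose in controls. Summed muscle markers overlapped between diets, at 48134 to 58029 RPM in mutant fasted and 42557 to 60435 RPM in mutant fed libraries, and at 50004 to 59934 RPM in control fasted and 48536 to 52753 RPM in control fed libraries. Summed midgut markers overlapped between diets in mutants, at 2309 to 2942 RPM fasted and 2536 to 3072 RPM fed, and lay wholly higher upon fasting in controls, at 3172 to 3744 RPM fasted and 2495 to 2902 RPM fed. The midgut genes did not move together. Of the 6 measured, 2 rose and 2 fell in mutants, and 3 rose and 2 fell in controls. The part of these tissues in the falls was not tested.

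Fasting changes of the subunit genes were smaller in mutants than in controls by 0.22 to 0.27 on the log2 scale. The difference did not pass for any of the 3, where 31.9% of all genes passed in either direction. It was 0.27 for *SdhA* (SE 0.13, limma adjusted p = 0.119), 0.22 for *SdhB* (SE 0.14, limma adjusted p = 0.242) and 0.22 for *SdhD* (SE 0.11, limma adjusted p = 0.140). No unadjusted p-value was under 0.05 (0.0534 for *SdhA*, 0.140 for *SdhB* and 0.0667 for *SdhD*), and neither edgeR nor DESeq2 called any of them. The 95% intervals of the mutant-to-control ratio of the fasting folds ran from 0.997 to 1.47 for *SdhA*, from 0.946 to 1.43 for *SdhB* and from 0.988 to 1.37 for *SdhD*.

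Between genotypes, the subunit genes differed on the fed diet. All 3 were lower in fed mutants, where 26.0% of all genes were called lower, and for each the mutant libraries lay below all controls, as was so for 25.9% of all genes. The differences on the log2 scale were -0.40 for *SdhA* (SE 0.09, limma adjusted p = 0.00207), -0.36 for *SdhB* (SE 0.10, limma adjusted p = 0.00615) and -0.35 for *SdhD* (SE 0.08, limma adjusted p = 0.00173). *Sirup* was higher in the same libraries. Genes of the other respiratory complexes were also lower in fed mutants, with medians of -0.25 for complex I and -0.36 for complex III. The medians were -0.29 for complex IV and -0.31 for ATP synthase. Lower calls numbered 17 of 34, 5 of 11, 5 of 9 and 9 of 13 genes in that order, and higher calls 3, 2, 2 and 3. The *SdhB* call was lost under quantile normalization, at -0.18 (limma adjusted p = 0.0582).

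In fasted larvae, where 20.9% of all genes were called lower in mutants, 0 of the 3 subunit genes were called by limma, edgeR or DESeq2, and 0 had an unadjusted limma p under 0.05. The estimates were -8.46% for *SdhA* (95% interval -20.2 to 4.96%), -9.70% for *SdhB* (-21.9 to 4.41%) and -8.50% for *SdhD* (-18.4 to 2.62%) in mutants relative to controls. Groups overlapped for each of them. For comparison, the estimates in fed mutants were -24.3% for *SdhA*, -22.3% for *SdhB* and -21.3% for *SdhD*, and the difference between the diets is the one that did not pass above.

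Ordered by level, each subunit gene ran from control fed through mutant fed and control fasted to mutant fasted larvae. The control fed libraries stood apart from every other group. Mutant fed and control fasted libraries overlapped for all 3 genes, and so did control fasted and mutant fasted libraries. The step from mutant fed to control fasted larvae was not tested. The ends of this stretch, mutant fasted and mutant fed, differed as given above.

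Summed testis markers moved with genotype, at 131 to 182 RPM in mutant fasted and 60.6 to 141 RPM in control fasted libraries, and at 145 to 199 RPM in mutant fed and 58.0 to 82.6 RPM in control fed libraries. Of the 16 genes measured, 11 were higher and 1 lower in fasted mutants, and 13 were higher and 0 lower in fed mutants. Among all genes, 23.8% were called higher and 20.9% lower in fasted mutants, and 25.6% higher and 26.0% lower in fed mutants. In fasted larvae the summed midgut markers were also apart, at 2309 to 2942 RPM in mutants and 3172 to 3744 RPM in controls (0 of 6 genes higher and 2 lower), as were the summed fat body markers, at 13740 to 15196 RPM in mutants and 11459 to 11863 RPM in controls (2 of 4 genes higher and 0 lower). The fat body sums were again mostly *Rfabg*, higher by 0.34 in fasted mutants (limma adjusted p = 0.000777). The part of these tissues in the genotype differences of *Sirup* and the subunit genes was not tested.

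**Figure D2:**
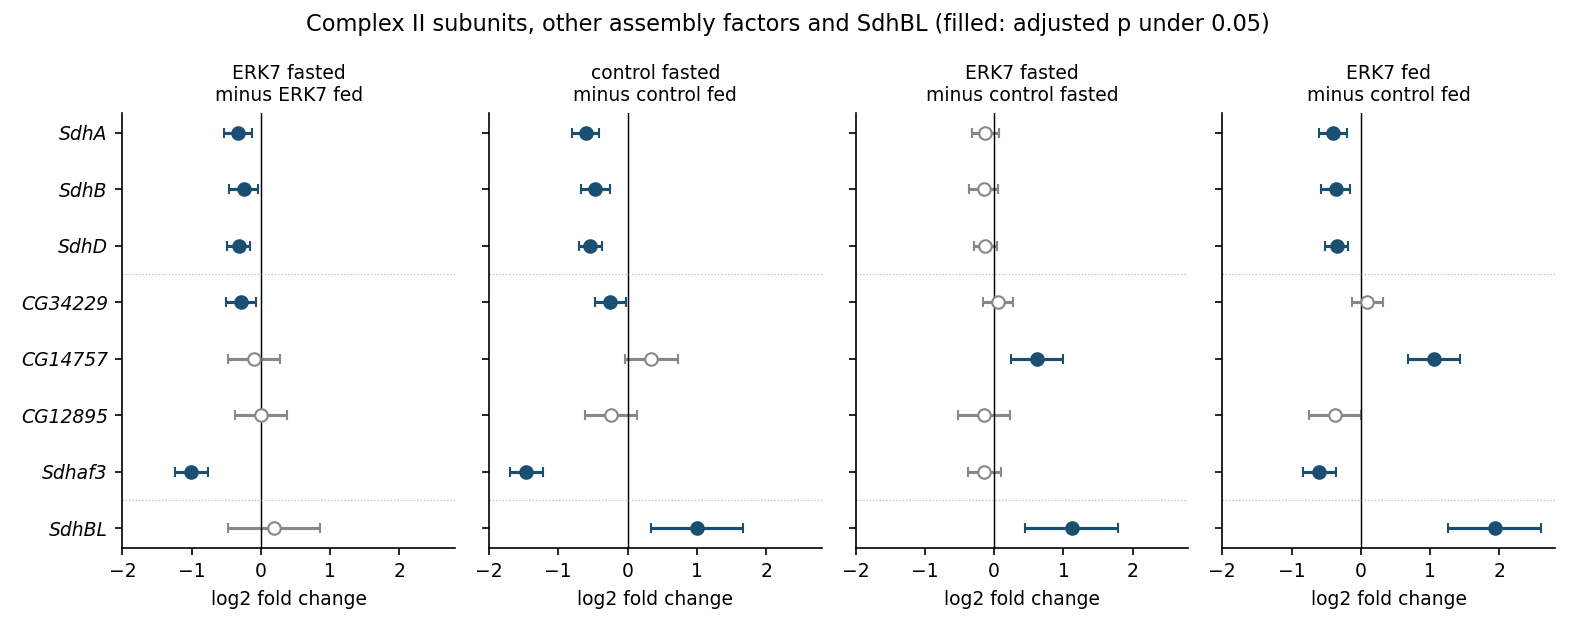
Log2 fold changes (points) with 95% intervals (bars) from the limma fit for the 3 subunit genes, the 4 other assembly factor genes and *SdhBL* in 4 comparisons, filled where the adjusted p is under 0.05. The subunit genes lie together, from -0.61 to -0.25 in the 3 comparisons in which they were called, while *Sdhaf3* reaches -1.46 upon fasting in controls and *SdhBL* 1.93 in fed mutants.

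Levels of different genes were compared per kb of exon. In control fed larvae the subunit genes had 229.6 ± 11.8 (*SdhA*), 308 ± 25.7 (*SdhB*) and 247 ± 22.6 (*SdhD*) RPM per kb, and *Sirup* had 17.5 ± 1.75 RPM per kb (SD, n = 4 each). In control fasted larvae *Sirup* reached 1063 ± 84.9 RPM per kb, above 151 ± 18.0 for *SdhA*, 224 ± 27.3 for *SdhB* and 169.5 ± 10.7 for *SdhD* (SD, n = 4 each). The assembly factor transcript was thus the scarcest of the 4 in fed and the most abundant in fasted controls.

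The same turn was seen in mutants, over a narrower span. *Sirup* had 644 ± 174 RPM per kb in mutant fasted and 40.8 ± 14.1 in mutant fed larvae, where *SdhA* had 138 ± 14.2 and 174 ± 13.8 (SD, n = 4 each). The per-kb ratio of *Sirup* to *SdhA* was 5.11, 3.64, 3.35 and 6.88 in the mutant fasted libraries and 6.53, 6.95, 6.58 and 8.23 in the control fasted libraries. It was 0.121, 0.316, 0.301 and 0.216 in the mutant fed libraries and 0.0759, 0.0848, 0.0617 and 0.0845 in the control fed libraries. Fasted libraries were all above 1 and fed libraries all below, and only the 2 fasted groups overlapped, through mutant fasted replicate 4. *Sirup* reads also came to 0.623 ± 0.207 of the summed reads of the 3 subunit genes in mutant fasted and 0.924 ± 0.0910 in control fasted larvae, against 0.0318 ± 0.0114 in mutant fed and 0.0104 ± 0.00154 in control fed larvae (SD, n = 4 each).

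The subunit genes kept nearly fixed proportions to each other. The per-kb ratio of *SdhA* to *SdhB* was 0.688 ± 0.0373 in mutant fasted, 0.679 ± 0.0472 in control fasted, 0.730 ± 0.0591 in mutant fed and 0.748 ± 0.0364 in control fed larvae (SD, n = 4 each), with a coefficient of variation of 7.12% over the 16 libraries. Those of *SdhA* to *SdhD* (5.52%) and of *SdhB* to *SdhD* (8.80%) varied as little, against 105% for *Sirup* to *SdhA*.

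**Figure D3:**
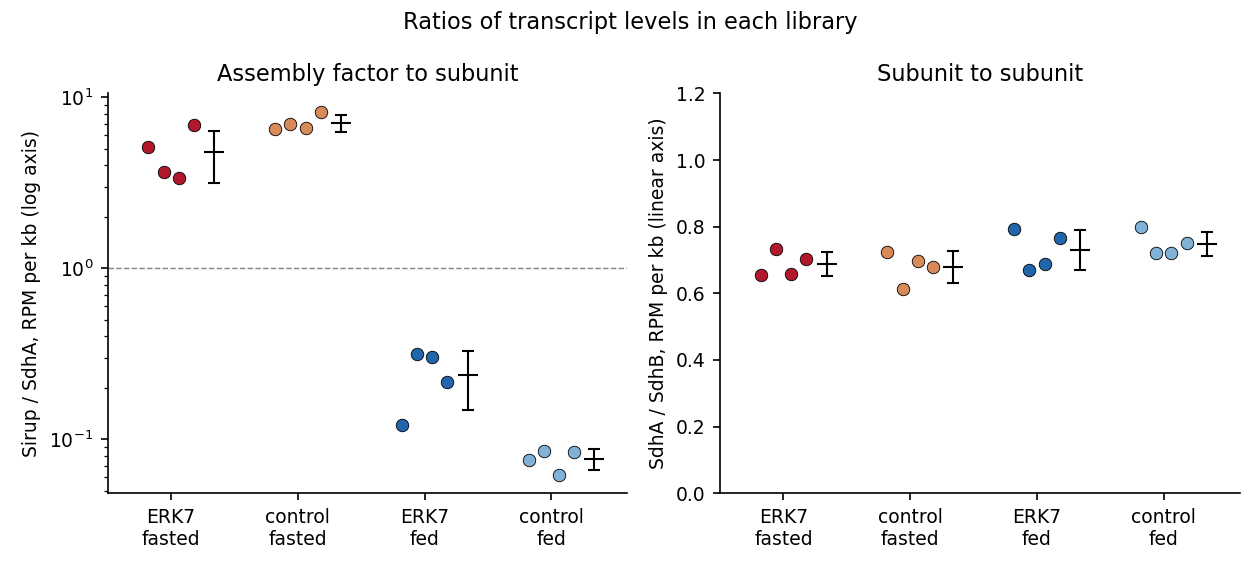
Ratio of *Sirup* to *SdhA* (left, log axis, dashed line at 1) and of *SdhA* to *SdhB* (right, linear axis), both from RPM per kb of exon, in each of the 16 libraries by group. Bars are the mean with the SD of 4 libraries. The *Sirup* to *SdhA* ratio lies between 3.35 and 8.23 in fasted and between 0.0617 and 0.316 in fed libraries, whereas the *SdhA* to *SdhB* ratio stays between 0.614 and 0.799.

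The other assembly factor genes of complex II did not share the pattern of *Sirup*. Of the 4 measured, 0 rose and 2 fell upon fasting in mutants and likewise in controls, with medians of -0.19 and -0.24, against 0.00 and 0.10 over all genes. Among all genes, 23.7% rose and 25% fell in mutants, and 37.5% rose and 32.2% fell in controls. Their levels were low, between 1.37 and 23.1 RPM per library, so the counting error reached 19.6% in the library with the fewest reads (26 reads of *CG14757*).

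*Sdhaf3*, whose counterparts in yeast and humans help mature the iron-sulfur subunit, changed most. It had 7.36, 5.09, 6.16 and 7.93 RPM in mutant fasted and 16.4, 14.4, 13.3 and 12.7 RPM in mutant fed libraries. It had 7.88, 6.64, 7.62 and 7.23 RPM in control fasted and 23.1, 19.4, 22.9 and 22.5 RPM in control fed libraries. The fasted and fed libraries did not overlap in either genotype. It fell upon fasting by 50.2% in mutants (limma adjusted p = 3.7e-06) and by 63.7% in controls (limma adjusted p = 2.44e-08). Fed mutants differed from fed controls by -0.60 on the log2 scale (SE 0.11, limma adjusted p = 0.000414), and in fasted larvae the difference was -0.14 (SE 0.11, limma adjusted p = 0.320). The fasting change in mutants minus that in controls was 0.46 (SE 0.16, limma adjusted p = 0.0393), where 18.2% of all genes passed with a positive and 13.7% with a negative difference, a call that was lost without replicate 1 (0.48, limma adjusted p = 0.0671), replicate 3 (0.45, limma adjusted p = 0.139) and replicate 4 (0.31, limma adjusted p = 0.254). It was also lost under quantile normalization (0.32, limma adjusted p = 0.151), with a pseudocount of 0.1 (limma adjusted p = 0.0583) and with limma-voom (adjusted p = 0.0516).

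*CG14757*, a counterpart of the factor that places the flavin into SdhA (Sdh5 in yeast), differed by genotype. It had 6.51, 6.83, 4.63 and 6.82 RPM in mutant fasted and 4.49, 3.53, 2.95 and 3.77 RPM in control fasted libraries. It had 5.98, 6.62, 6.62 and 7.42 RPM in mutant fed and 2.92, 3.47, 3.34 and 1.37 RPM in control fed libraries. Mutant libraries lay above all controls on each diet (as did those of 16.3% of all genes when fasted and 25.3% when fed), by 0.62 in fasted (SE 0.18, limma adjusted p = 0.0125) and 1.06 in fed larvae (SE 0.18, limma adjusted p = 0.000157), where 23.8% of all genes were called higher in fasted and 25.6% in fed mutants. The fasted call was lost without replicate 2 (0.56, limma adjusted p = 0.0934). In each group the library lowest in *CG14757* was also lowest in summed testis markers. These sums were 131 RPM in mutant fasted, 60.6 in control fasted, 145 in mutant fed and 58.0 in control fed larvae. The order of the remaining libraries matched in control fasted larvae alone. The part of testis content in the *CG14757* values was not tested. The fasting change of *CG14757* did not pass, with -0.10 in mutants (limma adjusted p = 0.692) and 0.35 in controls (limma adjusted p = 0.0922), although the value in controls passed without replicate 3 (0.50, limma adjusted p = 0.0392).

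*CG12895*, the other counterpart of the same flavin factor, passed in none of the 5 comparisons and ranged from 2.83 to 6.22 RPM over all libraries. In fed mutants against fed controls it was at -0.38 (limma adjusted p = 0.0878), and passed without replicate 1 (-0.48, limma adjusted p = 0.0294) and under quantile normalization (-0.66, limma adjusted p = 0.00847). *CG34229*, the counterpart of human SDHAF1, which acts on the iron-sulfur subunit, had 8.86 to 14.8 RPM. Its fall upon fasting was -0.29 in mutants (SE 0.10, limma adjusted p = 0.0315) and -0.25 in controls (SE 0.10, limma adjusted p = 0.0457), with overlap between diets in each genotype. Both calls were lost without replicate 1 (limma adjusted p = 0.244 in mutants and 0.125 in controls), replicate 2 (0.0902 in mutants and 0.0676 in controls) and replicate 3 (0.171 in mutants and 0.205 in controls). The control call was also lost without control fasted replicate 1 alone (limma adjusted p = 0.0859), after centring on the median (0.0593) and with limma-voom (0.0560), and the mutant call with only the libraries compared (0.0507).

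*SdhBL*, a paralogue of *SdhB*, went against its namesake. It had 12.0, 12.4, 9.27 and 13.0 RPM in mutant fasted and 8.25, 3.64, 2.13 and 7.38 RPM in control fasted libraries. It had 7.88, 9.50, 13.7 and 9.79 RPM in mutant fed and 2.38, 3.26, 1.54 and 0.898 RPM in control fed libraries. Mutants lay above controls on each diet, by 1.12 in fasted (SE 0.31, limma adjusted p = 0.0113) and 1.93 in fed larvae (SE 0.31, limma adjusted p = 0.000128). The fasted call was lost without replicate 2 (0.98, limma adjusted p = 0.0882). Of all genes, 16.3% lay wholly higher in fasted and 25.3% in fed mutants, and 23.8% and 25.6% were called higher. In controls *SdhBL* rose upon fasting by 1.00 (SE 0.31, limma adjusted p = 0.0108), where 37.5% of all genes rose. The control groups overlapped, and the call was lost without replicate 1 (0.86, limma adjusted p = 0.0558) and replicate 4 (0.62, limma adjusted p = 0.152).

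*SdhBL* moved with the testis markers within groups too. Control fasted replicates 1 and 4, with 8.25 and 7.38 RPM of *SdhBL*, had 141 and 128 RPM of summed testis markers, whereas replicates 2 and 3, with 3.64 and 2.13 RPM, had 79.4 and 60.6 RPM. The part of testis content in these values was not tested. The paralogues *SdhAL* and *CG6629* were not analysed here. Exons of *CG34229* share 62 bases with the antisense gene *S2P*.

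In the citric acid cycle, all 14 enzyme genes listed were measured, and falls outnumbered rises in both genotypes. Upon fasting 7 fell and 3 rose in mutants (median -0.21), and 10 fell and 4 rose in controls (median -0.37), against medians of 0.00 in mutants and 0.10 in controls over all genes. Of all genes, 25% fell and 23.7% rose in mutants, and 32.2% fell and 37.5% rose in controls, so the rises in this list were near or below their share over all genes. In fasted mutants 7 were lower and 1 higher than in fasted controls (20.9% and 23.8% of all genes), where 0 of the 3 subunit genes were called. In fed mutants 11 were lower and 1 higher than in fed controls (median -0.38), with 2 called in neither direction and with 26.0% of all genes lower.

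The beta subunit genes of the step before complex II changed in opposite directions. *skap*, the ADP-linked beta subunit of succinyl-CoA synthetase, which releases succinate, had the largest rise of the cycle genes called in controls, at 0.86 in mutants (limma adjusted p = 1.27e-06) and 1.05 in controls (limma adjusted p = 4.99e-08). *Sucb*, its GTP-linked partner, had the largest fall, at -1.02 in mutants (limma adjusted p = 2.1e-08) and -1.19 in controls (limma adjusted p = 9.01e-10). *Scsalpha*, the shared alpha subunit, named for its place in the pathway after its values were seen, rose by 0.37 in mutants (limma adjusted p = 0.00250) and 0.36 in controls (limma adjusted p = 0.00173). The fumarase gene *l(1)G0255*, the step after complex II and named in the same way, had -0.20 in controls (limma adjusted p = 0.0393), a call that was lost without replicates 1, 2 and 4 (limma adjusted p = 0.120, 0.117 and 0.0920) and without control fasted replicate 1 alone (0.0994). The *l(1)G0255* call was also lost under quantile normalization (-0.093, limma adjusted p = 0.138), after centring on the median (0.0686) and with only the libraries compared (0.0900).

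Complex II is not the only donor of electrons to ubiquinone in mitochondria, and other genes of electron transfer to ubiquinone diverged. Of 5 measured, 1 rose and 2 fell in mutants, and 2 rose and 3 fell in controls. Among all genes, 23.7% rose and 25% fell in mutants, and 37.5% rose and 32.2% fell in controls. The rises of these electron transfer genes were thus near their share over all genes. *Etf-QO*, which brings in electrons from fatty acid oxidation, rose by 0.85 in mutants (limma adjusted p = 0.000191) and 1.06 in controls (limma adjusted p = 1.21e-05). *Gpo-1*, the mitochondrial glycerol-3-phosphate dehydrogenase, fell by 0.32 in mutants (limma adjusted p = 0.0295) and 1.68 in controls (limma adjusted p = 6.04e-09), and the mutant call was lost without replicate 1 (-0.20, limma adjusted p = 0.248), replicate 2 (-0.33, limma adjusted p = 0.114) and replicate 4 (-0.30, limma adjusted p = 0.111). Of 5 genes of iron-sulfur cluster assembly, which supplies SdhB, 2 fell and 1 rose in mutants, and 3 fell and 0 rose in controls. *bcn92*, a small partner of the sulfur-donating enzyme, fell most, by 0.84 in mutants (limma adjusted p = 6.01e-08) and 1.44 in controls (limma adjusted p = 9.45e-11).

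The fall of the complex II subunit genes upon fasting was of the size seen in the other respiratory complexes. In mutants the medians were -0.25 for complex I (17 of 34 genes fell), -0.20 for complex III (6 of 11), -0.26 for complex IV (3 of 9) and -0.16 for ATP synthase (6 of 13). In controls they were -0.46 for complex I (29 of 34 genes fell), -0.45 for complex III (9 of 11), -0.44 for complex IV (7 of 9) and -0.49 for ATP synthase (10 of 13). The share of all genes that fell was 25% in mutants and 32.2% in controls, and the 3 of 9 of complex IV in mutants lay near it. The middle of the 3 complex II subunit genes was *SdhD*, at -0.32 in mutants and -0.54 in controls. In controls the largest falls were those of *ND-MLRQ* in complex I (-0.71, limma adjusted p = 4.85e-06), *ox* in complex III (-0.75, limma adjusted p = 8.66e-06), *levy* in complex IV (-0.73, limma adjusted p = 2.34e-05) and *ATPsynG* in ATP synthase (-0.99, limma adjusted p = 1.93e-05). The largest rises belonged to paralogues, *ND-49L* (1.20, limma adjusted p = 0.00119) and *ATPsynGL* (0.72, limma adjusted p = 0.0444). Both are counted in the medians above, whereas *SdhBL* is kept out of the complex II genes. *ND-49L* was low, with means of 8.00 RPM in mutant fasted, 3.55 in control fasted, 7.65 in mutant fed and 0.85 in control fed larvae. Its means were higher in mutants on each diet, as were the summed testis markers, and the part of testis content was not tested. The *ATPsynGL* call was lost without replicates 1 and 4 (limma adjusted p = 0.101 and 0.363) and without control fasted replicate 1 alone (0.155). It was also lost under quantile normalization (0.33, limma adjusted p = 0.229), with only the libraries compared (0.115), with the replicate block (0.0549) and with limma-voom (1.33, adjusted p = 0.0901), and *ND-49L* ranged from 0.83 to 2.07 over its alternatives.

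**Figure D4:**
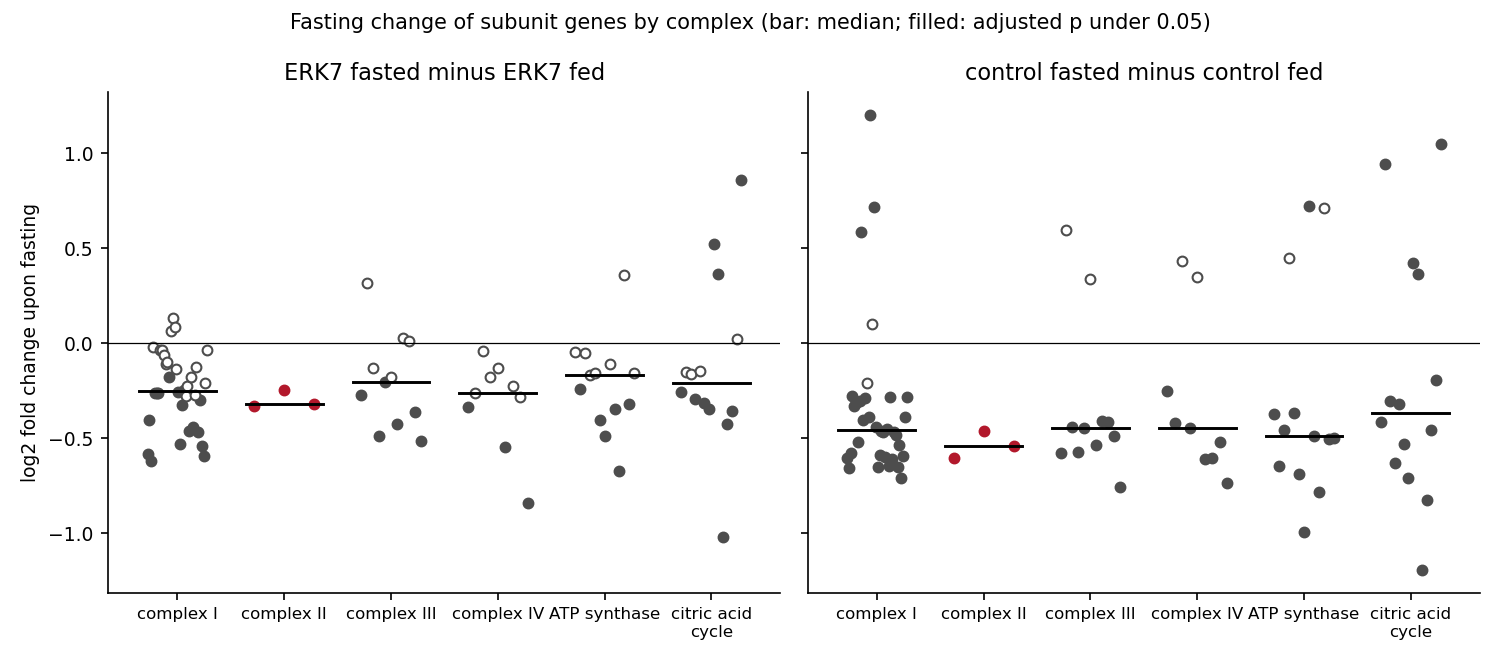
Log2 fold change upon fasting of the genes of each respiratory complex, ATP synthase and the citric acid cycle, in mutants (left) and in controls (right). Each point is a gene, filled where the limma adjusted p is under 0.05, and bars are medians. The 3 complex II subunit genes (red, -0.33 to -0.25 in mutants and -0.61 to -0.46 in controls) lie within the range of the other complexes.

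*Sirup* kept company with genes outside complex II. Among 5229 genes above the median level, the 5 with the highest Pearson r with *Sirup* over the 16 libraries on the log2 scale were *f-cup*, *Lk6*, *CG6770*, *CG7083* and *Pdcd4*, each with r = 0.99, and 47 genes had r above 0.98. These 16 points fall into groups that *Sirup* separates widely, so r mainly reflects the order of the groups and is given as a description. *Lk6* encodes a kinase of the cap-binding translation initiation factor, and the protein of *Pdcd4* is known in mammals to bind the initiation helicase and hold back translation.

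The fasting change of these 5 genes was 0.99 to 3.50 in mutants and 1.68 to 5.14 in controls, and that of *Sirup* was the largest of the 6 in each genotype. *CG6770* came nearest in size. It had 4390, 2960, 3323 and 4234 RPM in mutant fasted and 5761, 5402, 5169 and 4902 RPM in control fasted libraries, and 289, 350, 273 and 397 RPM in mutant fed and 159, 153, 130 and 159 RPM in control fed libraries. The fitted differences between mutants and controls were 0.38 to 1.11 on the fed diet (1.09 for *Sirup*). In fasted larvae they were -0.53 to -0.15 (-0.76 for *Sirup*), and smallest for *Pdcd4*, whose mutant fasted libraries, at 195 to 275 RPM, spanned the control fasted range of 237 to 259 RPM. As these genes were chosen by their likeness to *Sirup*, their values carry no test. Of 5 genes listed to check the fasting itself, 4 rose in each genotype, where 23.7% of all genes rose in mutants and 37.5% in controls. *Thor*, which encodes the translation inhibitor 4E-BP, rose most, by 2.79 in mutants (limma adjusted p = 2.05e-07) and 4.71 in controls (limma adjusted p = 2.82e-10). The remaining gene, *ImpL2*, which encodes a secreted antagonist of insulin signalling and is named here after its values were seen, fell by 0.64 in mutants (limma adjusted p = 0.0284) and was at 0.41 in controls (limma adjusted p = 0.119).

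**Figure D5:**
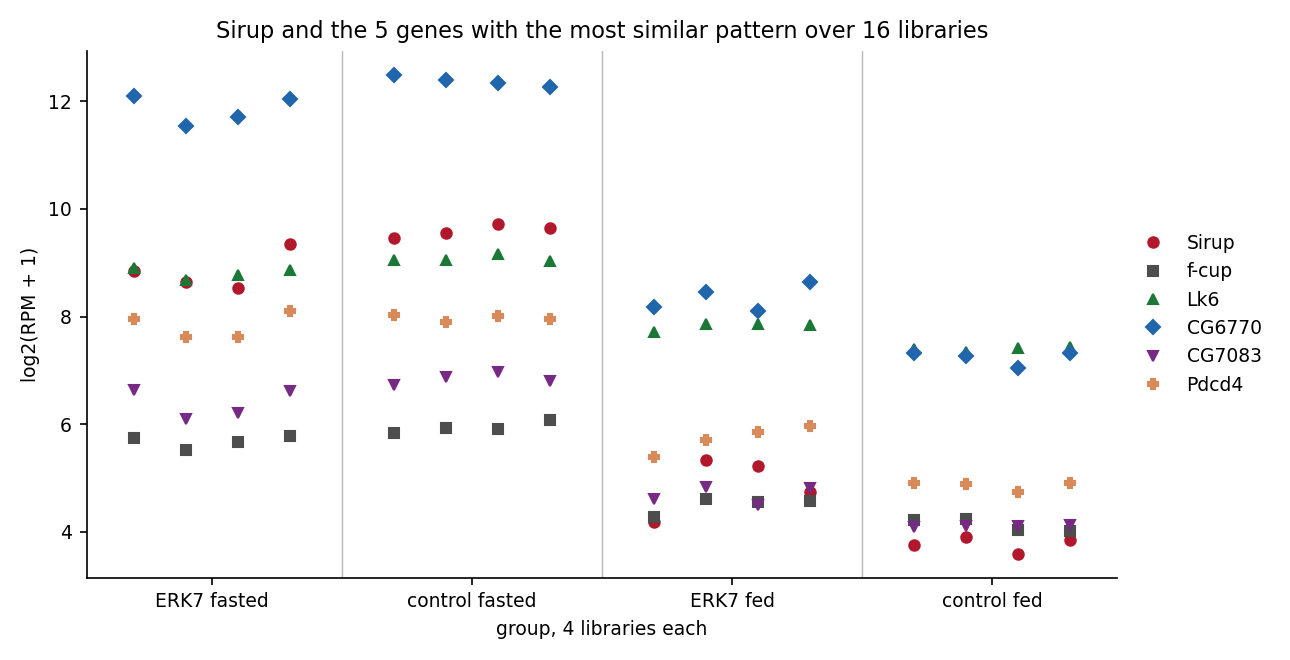
Level as log2(RPM + 1) of *Sirup* and the 5 genes with the most similar pattern in the 16 libraries, with the 4 libraries of each group in the order of their replicate number. All 6 genes are highest in control fasted or mutant fasted and lowest in control fed libraries, and *Sirup* crosses all of the others except *CG6770*, from its lowest control fed library (11.0 RPM) to its highest control fasted library (844 RPM).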

How the data were processed

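The authors trimmed reads with Trimmomatic, mapped them with TopHat2 2.1.0 to a release 6 fly genome, counted them on exons with HTSeq 2.7.6, removed genes with very low counts and deposited a signal value per gene and library, which is reads scaled by the effective library size (RPM). All values (100%) were whole multiples of 1 read at a tolerance of 1e-06, so reads were recovered. Columns of the authors' own comparisons were not used. The members and lists were chosen with earlier results of these data known.

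The planned test for such values, limma 3.58.1 in R 4.3.3 on log2(RPM + 1), fitted 4 group means over 16 libraries with Benjamini-Hochberg adjustment over 10459 genes at 0.05, and no further filter. The alternatives were edgeR 4.0.16 (quasi-likelihood, which called 5094 genes upon fasting in mutants and 7423 in controls), DESeq2 1.42.0 and limma-voom on recovered reads, a pseudocount of 0.1, quantile normalization, centring on the median, a variance trend, removal of the lowest 25% of genes by level, only the libraries compared, a replicate block, leaving out each replicate and a threshold of 0.01. Methods were tested on simulated data. Exon lengths and gene positions were taken from a newer Ensembl gene annotation on the release 6 assembly. In each list, the gene with the largest rise and that with the largest fall among those called in controls were named. Depth limits the precision of low genes only, and percentages of counting error cover counting error alone. Some antisense neighbours of the assembly factor genes are not reported here.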

Additional observations from a re-analysis of the deposited data

Results flagged for a closer look

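The values below come from the 4 measured complex II genes, the 4 other assembly factor genes and *SdhBL*. In 3 of 36 groups of 4 libraries, a single library lay far from the other 3, and about 1 in 20 groups is expected to do so. *CG34229* in mutant fasted larvae had a highest library of 12.5 RPM (replicate 4), with the others between 9.67 and 9.72 RPM. *CG14757* in mutant fasted larvae had a lowest library of 4.63 RPM (replicate 3), with the others between 6.51 and 6.83 RPM. *Sdhaf3* in control fed larvae had a lowest library of 19.4 RPM (replicate 2), with the others between 22.5 and 23.1 RPM.

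Of 8 genes whose fasting change was compared between genotypes by limma's interaction term, *Sdhaf3* alone passed, where 31.9% of all genes passed. Its fasting change was higher by 0.46 in mutants than in controls (limma adjusted p = 0.0393), and the call held under 8 of its 15 alternatives.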

How the results depend on the processing

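Under the alternatives, 301 values of the 4 measured members kept their direction and side of the threshold, 11 lost a call, 1 moved beyond the spread of replicates and none turned. The count of subunit genes called changed by over 1.5 times in 1 case and not in the other 78. It was 3 upon fasting in mutants and ran from 1 to 3 when each replicate number was left out. *Sirup* in fasted mutants against controls (-0.76) ran from -0.91 to -0.61 without each replicate in turn and missed a threshold of 0.01. Its interaction was -1.53 without replicate 3. *SdhB* upon fasting in mutants also missed the threshold with a pseudocount of 0.1 (adjusted p = 0.0524) and in DESeq2 (adjusted p = 0.0526). The sign turned for *CG12895* upon fasting in mutants (0.00067 with a pseudocount of 0.1, 0.026 with limma-voom, -0.13 to 0.20 without each replicate in turn), for *CG14757* in the same comparison (-0.17 to 0.013) and for the interaction of *CG34229* (-0.16 to 0.037), all uncalled, and the cause was not tested. Fitting only the libraries compared gives no interaction. Same-numbered libraries of different groups correlated at -0.32 to 0.29 over 16 pairs (5 above 0.1). These values show no clear pairing by number, although so few pairs cannot exclude it. The replicate block left the counts at 3 upon fasting in mutants and in controls, 3 in fed and 0 in fasted mutants, and 0 for the interaction. With the block, *Sirup* in fasted mutants was at -0.76 (limma adjusted p = 0.0185). The alternatives for genes other than the members, and leaving out control fasted replicate 1, were chosen after seeing the data. The median of all genes in controls upon fasting was 0.10 as deposited, 0.02 after quantile normalization and 0.12 after centring. Depth limits the low assembly factor genes and *SdhBL*, with 17 to 428 reads per library. It also limits *Sirup* in fed larvae, with 172 to 270 reads in control fed and 298 to 783 in mutant fed libraries.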
